A study of Bos taurus with 6 samples.

Results

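Genes that TGF-beta is known to switch on through SMAD2 and SMAD3 were followed here in primary bovine aortic endothelial cells: TGFBI, PMEPA1, JUNB, KLF10, CCN2, TGIF1 and SKIL, together with SNAI1. They were chosen by name, with earlier results of these data known. Every probe set that the array annotation assigns to one of these 8 genes alone was taken. This gave 10 probe sets for 7 genes, out of 24016 probe sets and 9162 named genes on the array. SKIL matched no probe set by name and was not analysed here. TGFBI, PMEPA1, JUNB and CCN2 had 1 probe set each, and SNAI1, KLF10 and TGIF1 had 2 each. The cells had been freed from bovine aorta with collagenase, grown in culture and kept as 2 groups. The TGFB group received TGF-beta 1 at 5 ng/ml for 24 hours, and the basal group was left untreated. Each group had 3 arrays, which the labels describe as coming from different cultures. They do not say whether the cultures came from separate animals, nor whether a basal and a treated array of the same number shared a culture, so the p-values measure the spread between these arrays.

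TGF-beta 1 binds the type II receptor TGFBR2, which activates the type I receptor TGFBR1. This kinase phosphorylates SMAD2 and SMAD3, and these enter the nucleus with SMAD4 and bind DNA beside other transcription factors such as AP-1. Some of the genes they induce act outside the cell (TGFBI, CCN2), some are transcription factors (JUNB, KLF10, SNAI1) and some turn the signal down again (PMEPA1, TGIF1, SKIL). Endothelial cells also carry a second type I receptor, ACVRL1, which signals through other SMADs, and sustained TGF-beta can move them towards a mesenchymal state in which SNAI1 takes part.

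Values are log2 expression from RMA, a method that normalizes the arrays together and gives no call of presence or absence. The median of an array was 5.88 to 5.92 and its maximum 13.93 to 14.03. Of 8 measured endothelial markers 7 lay above the array median, with PECAM1 at a basal mean of 12.29 and CDH5 at 12.10, whereas KDR lay at 5.14. Over this list the array means ran from 9.23 to 9.69 in basal and from 8.66 to 8.77 in treated cultures, and 1 of the 8, CLDN5, passed the test described below: it fell by 3.17 log2 (limma adjusted p = 0.0371). For 6 smooth muscle markers the array means ran from 6.10 to 6.16 in basal and from 6.07 to 6.18 in treated cultures. None of the smooth muscle, fibroblast, leukocyte or epithelial markers passed (limma, threshold below). Over all arrays 4 of 6 smooth muscle, 2 of 6 fibroblast, 1 of 5 leukocyte and 2 of 6 epithelial markers lay above the array median, among them COL3A1 at a basal mean of 10.78, KRT5 at 7.73 and CD14 at 6.74. Below the 25th percentile lay 3 of 6 fibroblast, 3 of 5 leukocyte and 2 of 6 epithelial markers, and no smooth muscle marker. The array means of these 3 lists ran from 5.93 to 6.09, 4.56 to 4.71 and 5.16 to 5.44 in basal, and from 5.92 to 5.99, 4.58 to 4.74 and 5.16 to 5.31 in treated cultures. The part of other cell types in the results below was not tested. The arrays also fell into 2 sets by their sign on the first principal component, and these sets did not match treatment. Basal 1, basal 2 and TGFB 1 were negative, and basal 3, TGFB 2 and TGFB 3 were positive. The place of TGFB 1 was not clear-cut, at -10.28 against -67.75 for basal 1 and -38.82 for basal 2. The sets were also unbalanced for treatment. The second component was positive in all basal and negative in all treated arrays, with TGFB 1 lowest at -48.05. In culture, fewer expressing cells and less RNA per cell cannot be told apart.

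Of the 7 genes, 5 had all treated arrays above all basal arrays, namely TGFBI, PMEPA1, JUNB, SNAI1 and KLF10. Over all genes 8.19% were apart in that direction and 15.1% in the other. TGFBI and SNAI1 rose in the test across all genes (limma, Benjamini-Hochberg adjusted p below the threshold of 0.05), so 2 of 7 passed where 1.72% of all genes did and 0.557% passed as higher. PMEPA1 and JUNB had larger differences than SNAI1 but did not pass. CCN2 and TGIF1 had overlapping groups. An unadjusted p under 0.05 was found for 5 of the 7 and for 17.4% of all genes, and a difference of at least 2-fold for 4 of the 7 and for 4.29% of all genes (limma fit). The median log2 difference of the 7 genes was 1.01, against -0.03 over all genes. These counts rest on 1 probe set per gene, the one with the highest mean over the arrays. The genes were chosen with earlier results of these data known, so the shares over all genes are given for description only. Over single probe sets, where p was adjusted for 24016 tests, none of the 10 passed (limma) and 0.658% of all probe sets did. An unadjusted p under 0.05 was found for 6 of the 10 and for 13.7% of all probe sets. With 3 arrays against 3 the exact permutation test of a single gene cannot give a two-sided p below 0.1.

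**Figure D1:**
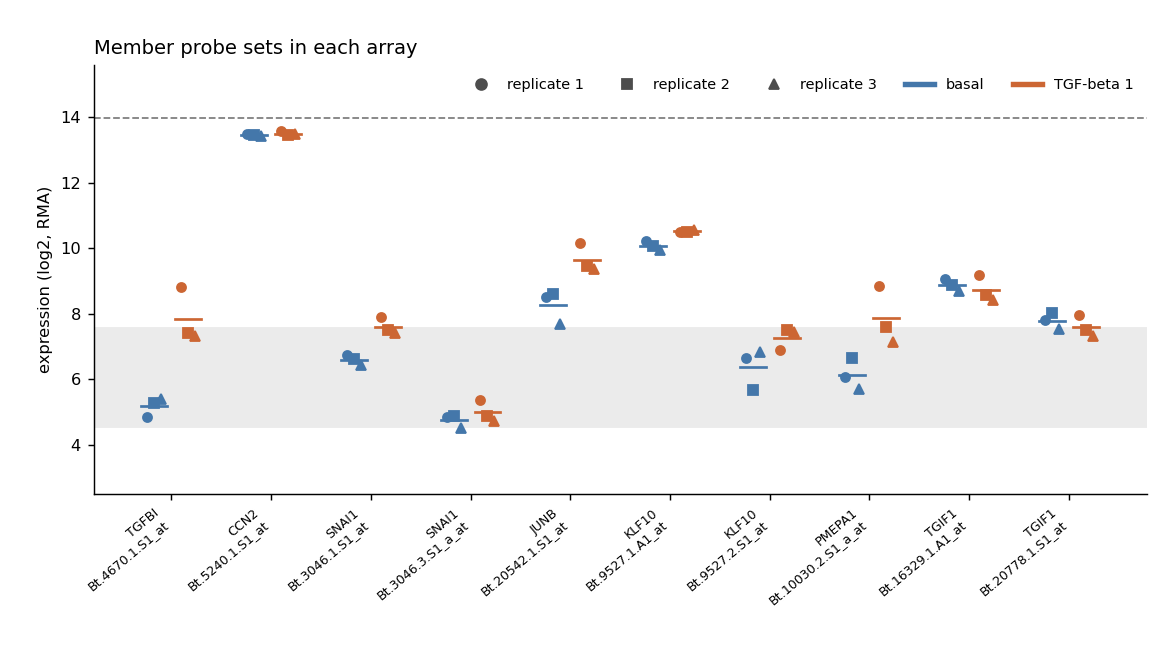
Log2 expression (RMA) of the 10 member probe sets in each array, basal in blue and TGF-beta 1 in orange, with marker shape for the replicate number and a bar for the group mean. The grey band spans the mean 25th to 75th percentile of the arrays and the dashed line is the mean array maximum. The groups are apart for TGFBI, PMEPA1, JUNB, the first SNAI1 probe set and both KLF10 probe sets, and CCN2 lies just under the maximum in all 6 arrays.

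TGFBI, a secreted matrix protein that binds integrins and collagen, rose most of the 7 genes. Its probe set Bt.4670.1.S1_at lay at 4.85, 5.29 and 5.40 in basal 1, 2 and 3 and at 8.81, 7.43 and 7.33 in TGFB 1, 2 and 3. All treated arrays were high, TGFB 1 most of all, and all basal arrays were below their array's median. The means were 5.18 ± 0.29 and 7.86 ± 0.83 log2 (SD, n = 3 each). The difference of 2.68 log2 (SE 0.42) amounted to 6.40-fold (95% interval 3.15 to 12.97) and passed at a limma adjusted p = 0.0461. Among all 9162 genes this was the 12th largest change in either direction. The adjusted p over single probe sets was 0.0662 by limma. The call held without basal 3 (limma adjusted p = 0.0211), a fit in which 16.8% of all genes pass. It ended when any of the other 5 arrays was left out, with limma adjusted p = 0.152 without basal 1, 0.209 without basal 2, 0.0653 without TGFB 1, 0.192 without TGFB 2 and 0.132 without TGFB 3.

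PMEPA1, a membrane protein that holds back SMAD2 and SMAD3 and so limits the signal that induces it, had the next largest difference. Its probe set Bt.10030.2.S1_a_at read 6.07, 6.65 and 5.71 in basal 1, 2 and 3 and 8.85, 7.61 and 7.15 in TGFB 1, 2 and 3. The groups were apart, and the lowest treated array, TGFB 3, lay only 0.50 log2 above the highest basal array. The difference was 1.73 log2 (SE 0.47), 3.31-fold with a 95% interval of 1.49 to 7.35. It did not pass (limma adjusted p = 0.135), with treated arrays spread by an SD of 0.88 and basal arrays by 0.48.

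JUNB, a JUN family member of the AP-1 transcription factors, stood at 8.51, 8.60 and 7.68 in basal 1, 2 and 3 on probe set Bt.20542.1.S1_at. Treated arrays stood at 10.15, 9.46 and 9.36. Basal 3 was the low array of its group and TGFB 1 the high array of the other, and the groups did not overlap. The difference was 1.39 log2 (SE 0.32), or 2.63-fold (95% interval 1.52 to 4.54), at a limma adjusted p = 0.101. Without basal 3 it was 1.10 log2 and passed (limma adjusted p = 0.0424), although the basal arrays then left share one array set and 16.8% of all genes pass.

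SNAI1, the zinc finger repressor Snail that silences cadherin genes in mesenchymal transition, passed the test on the brighter of its probe sets. On Bt.3046.1.S1_at basal arrays 1, 2 and 3 lay at 6.74, 6.62 and 6.43 and TGFB arrays 1, 2 and 3 at 7.90, 7.50 and 7.42. Both groups were tight, with an SD of 0.16 in basal and 0.26 in treated arrays. The difference was 1.01 log2 (SE 0.17), or 2.02-fold (95% interval 1.52 to 2.67), at a limma adjusted p = 0.0487. The second probe set, Bt.3046.3.S1_a_at, gave 4.85, 4.87 and 4.52 in basal and 5.38, 4.89 and 4.72 in treated arrays. Its groups overlapped, its level lay between the 25.2 and 39.9 percentiles of the arrays, and its difference was 0.25 log2 (SE 0.20, limma adjusted p = 0.666 over probe sets). Averaging both probe sets gave 0.63 log2 and ended the call (limma adjusted p = 0.152). The call held without basal 3 (limma adjusted p = 0.0259), a fit in which 16.8% of all genes pass. It ended without basal 1 (0.136), basal 2 (0.218), TGFB 1 (0.111), TGFB 2 (0.21) or TGFB 3 (0.156), all limma adjusted p.

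KLF10, a Krüppel-like repressor known as the TGF-beta inducible early gene, had a small difference that separated the groups on both probe sets. The brighter one, Bt.9527.1.A1_at, lay at 10.21, 10.09 and 9.96 in basal and at 10.51, 10.50 and 10.56 in treated arrays. All treated arrays were within 0.06 log2 of each other and above every basal array. The difference was 0.44 log2 (SE 0.11), or 1.36-fold (95% interval 1.13 to 1.63), at a limma adjusted p = 0.112. The second, Bt.9527.2.S1_at, gave 6.66, 5.67 and 6.84 in basal and 6.89, 7.51 and 7.43 in treated arrays. Basal 2 was low there, and TGFB 1 lay just above basal 3. Its difference was 0.89 log2 (SE 0.34, limma adjusted p = 0.34 over probe sets).

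TGIF1, a homeodomain protein that recruits repressors to SMAD2, had overlapping groups on both probe sets. On Bt.16329.1.A1_at basal arrays 1, 2 and 3 read 9.06, 8.88 and 8.71 and TGFB arrays 1, 2 and 3 read 9.18, 8.58 and 8.44. TGFB 1 was the highest of all arrays, while TGFB 2 and 3 were the lowest. The difference was -0.15 log2 with a 95% interval of -0.69 to 0.39 (limma adjusted p = 0.78), and its sign changed when the array sets entered the fit as a block (0.0044 log2). The second probe set, Bt.20778.1.S1_at, ran from 7.53 to 8.02 in basal and from 7.33 to 7.96 in treated arrays and stood at -0.18 log2 (limma adjusted p = 0.765 over probe sets). The interval of the first reaches from 0.62 to 1.31 times the basal level, so a modest change either way was not measurable with these arrays.

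CCN2, the matricellular connective tissue growth factor, lay near the top of the range in every array. Its probe set Bt.5240.1.S1_at read 13.48, 13.46 and 13.45 in basal arrays 1, 2 and 3 and 13.57, 13.47 and 13.48 in TGFB arrays 1, 2 and 3. Only TGFB 1 stood out, by about 0.1 log2, and the groups overlapped. The difference was 0.04 log2 with a 95% interval of -0.18 to 0.27 (limma adjusted p = 0.854), which corresponds to 0.88 to 1.21 times the basal level on the scale of the array. Between 4 and 16 probe sets of an array were brighter than CCN2. Of all genes, 52 had a mean above 13 log2. None of these 52 passed (limma), the largest difference among them was 0.50 log2 and their median absolute difference was 0.05. For the 2951 genes with means between 7 and 9 that median was 0.33 and 2.64% passed. The small CCN2 difference stands beside a narrow spread of all bright genes, and the part of the array's upper limit in it was not tested.

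**Figure D2:**
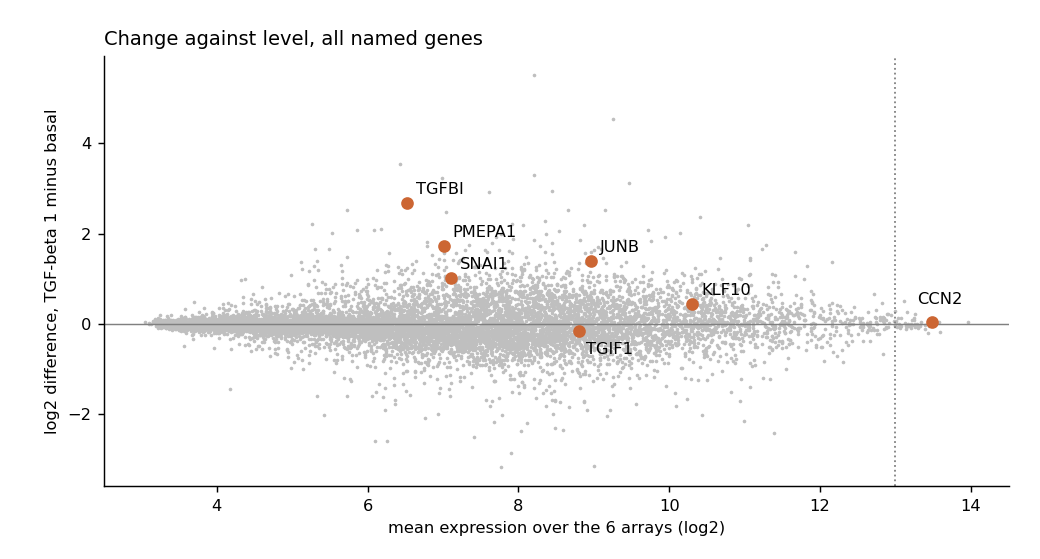
Log2 difference, TGF-beta 1 minus basal, against mean log2 expression over the 6 arrays, with every named gene in grey and the 7 members in orange. The dotted line marks 13 log2. Right of that line the 52 genes lie within 0.50 log2 of no change, CCN2 among them, while TGFBI at 2.68 lies near the upper edge of the cloud.

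Individual arrays differed within the groups in a way most members shared. TGFB 1 was the highest treated array, and also the highest of all 6 arrays, for 6 of the 7 genes. The exception was KLF10, which was highest in TGFB 3. Basal 3 was the lowest basal array for 6 of 7, and here TGFBI was the exception, with basal 3 as its highest basal value. Over all genes basal 3 was the lowest basal array in 53.0% and TGFB 1 the highest treated array in 50.5%. The share of all genes with TGFB 1 highest of all 6 arrays was not counted. The median absolute difference between basal 3 and the mean of basal 1 and 2 was 0.31 log2 over all genes. The same measure between TGFB 1 and the mean of basal 1 and 2, also 1 array against the mean of 2, was 0.24. For JUNB basal 3 lay 0.88 log2 below the other basal arrays, for PMEPA1 0.66 below, for SNAI1 0.25 below and for KLF10 0.19 below. TGFBI lay 0.34 above them.

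Within each array set the treated arrays were therefore compared with the basal arrays of the same set, as values without a test. TGFBI differed by 3.74 log2 between TGFB 1 and the mean of basal 1 and 2, and by 1.98 between the mean of TGFB 2 and 3 and basal 3. PMEPA1 differed by 2.48 and 1.67, JUNB by 1.60 and 1.73, SNAI1 by 1.22 and 1.03 and KLF10 by 0.36 and 0.57. These 5 genes were higher in treated cultures in both sets. That sign was fixed beforehand, because their groups were apart over all arrays. CCN2 stood at 0.10 and 0.03 and TGIF1 at 0.21 and -0.20, with opposite signs for the last. When the array sets were kept as a block in the fit, 5 of the 7 genes passed. The values were 2.86 log2 for TGFBI (limma adjusted p = 0.0112), 1.13 for SNAI1 (0.00484), 1.66 for JUNB (0.00274), 2.08 for PMEPA1 (0.00989) and 0.47 for KLF10 (0.0432). The block was chosen with the values of these arrays known, and 878 genes, or 9.58%, pass in that fit. It rests on sets that were unbalanced for treatment and in which the place of TGFB 1 was not clear-cut.

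**Figure D3:**
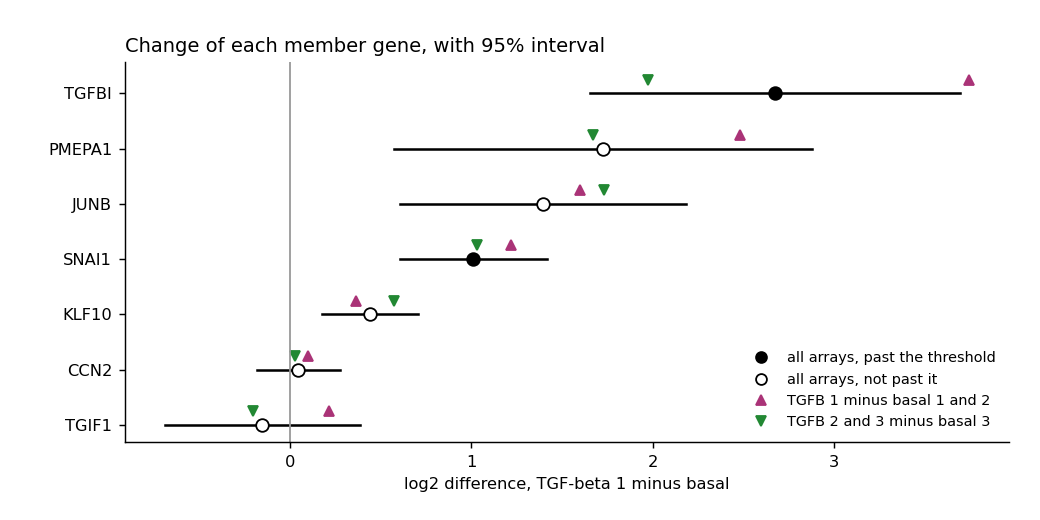
Log2 difference, TGF-beta 1 minus basal, of the 7 member genes. Circles with lines are the fit of all 6 arrays and its 95% interval, filled where the gene passed the limma threshold. Triangles are the differences within each array set, TGFB 1 against basal 1 and 2 (upward) and TGFB 2 and 3 against basal 3 (downward), with no interval. Both triangles lie right of 0 for TGFBI, PMEPA1, JUNB, SNAI1 and KLF10, which follows from their groups not overlapping. They also lie right of 0 for CCN2, and on opposite sides of 0 for TGIF1.

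Likeness between genes was measured as the root mean square difference of their log2 values over the 6 arrays after each gene was centred on its own mean. Among the members, JUNB and SNAI1 lay 0.31 apart and JUNB and PMEPA1 0.35 apart. TGFBI was closest to PMEPA1, at 0.59. The distance is not scaled, so genes that changed little, such as CCN2, KLF10 and TGIF1, lie close to each other by construction, and their distances show no shared pattern. For genes that changed more, closeness likewise depends in large part on a change of similar size and direction. Over all 9162 genes the patterns most like TGFBI were those of VEGFA (0.19), the angiogenic growth factor, and ANGPTL4 (0.31), a secreted inhibitor of lipoprotein lipase. VEGFA lay at 6.04, 6.23 and 6.17 in basal and 9.90, 8.59 and 8.71 in treated arrays, with TGFB 1 high as in TGFBI. Closest to PMEPA1 were BCAT1 (0.27), a branched-chain amino acid aminotransferase, and SPSB1 (0.28), an adaptor of ubiquitin ligases. Closest to JUNB were PSAT1 (0.10), an enzyme of serine synthesis, and SERINC2 (0.13), a membrane protein. Closest to SNAI1 were FAM174B (0.07), a membrane protein, and YRDC (0.09), an enzyme of tRNA modification. PSAT1 lay at 10.12, 10.45 and 9.27 in basal and 11.97, 11.13 and 11.11 in treated arrays, low in basal 3 and high in TGFB 1 like JUNB. These distances describe 6 arrays and carry no test.

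Of 111 further genes of the pathway and its families 68 were measured. By limma 2 passed as higher and 1 as lower, where 0.557% and 1.17% of all genes did, and the median difference was 0.07 log2. For the list counts here and below, 17.4% of all genes had an unadjusted p under 0.05 (limma). Of 15 measured genes known to be induced through SMAD2 or SMAD3 in other cells, 2 rose and none fell past the threshold. In this list 6 were apart upwards and 2 downwards, where 8.19% and 15.1% of all genes were, and the median was 0.34. TAGLN, or transgelin, which binds actin in smooth muscle, rose from 9.90, 9.78 and 10.18 to 12.18, 12.33 and 11.92. The arrays of each group lay close together, and the difference was 2.19 log2 (SE 0.16, limma adjusted p = 0.0188). ANGPTL4 rose by 2.51 log2 (SE 0.41, limma adjusted p = 0.0484). TSC22D1, a leucine zipper protein whose name recalls TGF-beta stimulation, stood the other way, at 11.98, 11.97 and 11.89 in basal and 10.89, 11.32 and 11.38 in treated arrays. Its groups were apart, and its difference of -0.75 log2 (SE 0.15) did not pass (limma adjusted p = 0.0824).

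Among 14 ligands, receptors and SMADs, TGFBR2 alone passed. This receptor, to which the added ligand binds, fell by 1.23 log2 (SE 0.19, limma adjusted p = 0.0461), from 11.62, 11.47 and 11.60 to 9.98, 10.34 and 10.70. TGFB 1, the array with the highest TGFBI and PMEPA1, had the lowest TGFBR2, and a link between these levels was not tested. Over all genes TGFB 1 was the highest treated array in 50.5%, and the share with TGFB 1 as the lowest treated array, as for TGFBR2, was not counted. TGFBR1 stood at 0.49 log2 (SE 0.16, limma adjusted p = 0.187). ENG, endoglin, which presents ligand to these receptors, stood at 0.99 (SE 0.38, limma adjusted p = 0.253), and neither passed. The median of this list was 0.08.

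None of the 11 measured SMAD co-repressors, co-activators and ubiquitin ligases passed (limma, 1 at an unadjusted p under 0.05). CTBP1, a co-repressor, had separate groups and stood at -0.79 log2 (SE 0.23, limma adjusted p = 0.149). CTBP2 stood at -0.21 and the nuclear receptor co-repressor NCOR1 at -0.26, both with overlapping groups. The list median was -0.13.

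None of 11 other AP-1 genes passed either (limma, 2 at an unadjusted p under 0.05), and their median was -0.05. ATF3, a stress-responsive family member, was the one with separate groups, at 9.03, 8.75 and 9.38 in basal and 10.10, 9.78 and 9.73 in treated arrays. That is 0.81 log2 (SE 0.19, limma adjusted p = 0.104). JUND stood at -0.40 and FOS at -0.46 with overlapping groups, on the other side of 0 from JUNB. Whether JUNB differed from them was not tested.

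Of 5 measured KLF genes other than KLF10 none passed (limma, 2 at an unadjusted p under 0.05), and the median was -0.91. KLF15 lay at 7.13, 6.46 and 5.54 in basal and 5.17, 5.26 and 5.07 in treated arrays, so basal 3 was close to the treated level. Its difference was -1.21 log2 (SE 0.38, limma adjusted p = 0.183). KLF11, the closest relative of KLF10, stood at -1.04 (SE 0.35, limma adjusted p = 0.206) and KLF4 at -0.91, both with overlapping groups.

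Of 7 measured mesenchymal transition factors, cadherins and VIM, from a list of 16, none passed (limma, 2 at an unadjusted p under 0.05). The median of -0.17 pools factors with cadherins and does not measure the transition. CDH2 had the largest difference, at 1.82 log2 (SE 1.10, limma adjusted p = 0.466). It lay at 5.02, 4.89 and 7.72 in basal and 5.72, 8.56 and 8.81 in treated arrays, with overlapping groups. Its high arrays were basal 3, TGFB 2 and TGFB 3, which form an array set, and the sets were unbalanced for treatment. ZEB1, a repressor that acts beside SNAI1 in this transition, lay at 7.88, 7.80 and 7.70 in basal and 8.79, 8.19 and 8.32 in treated arrays. The groups were apart by 0.64 log2 on average (SE 0.18, limma adjusted p = 0.139). CDH5, the cadherin of endothelial junctions, stood at -0.57 (SE 0.19, limma adjusted p = 0.204), with TGFB 1 at 11.75 just below basal 3 at 11.76. TCF3, which binds the same DNA elements as SNAI1, stood at -0.44 with overlapping groups. VIM, at a basal mean of 13.68, had groups apart downwards and stood at -0.17 log2 (SE 0.10, limma adjusted p = 0.443).

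Of 5 measured relatives of CCN2 and TGFBI none passed (limma, 1 at an unadjusted p under 0.05), and the median was 0.09. POSTN, periostin, which shares the fasciclin domains of TGFBI, read 3.95, 3.84 and 4.69 in basal and 7.23, 5.84 and 6.05 in treated arrays. Basal arrays were low and TGFB 1 was the highest, as for TGFBI. The difference of 2.22 log2 (SE 0.42) did not pass (limma adjusted p = 0.0669). CCN1 stood at 0.14 log2 (SE 0.11, limma adjusted p = 0.587) from a basal range of 11.94 to 12.20, and the scavenger receptor STAB2 at -0.12.

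**Figure D4:**
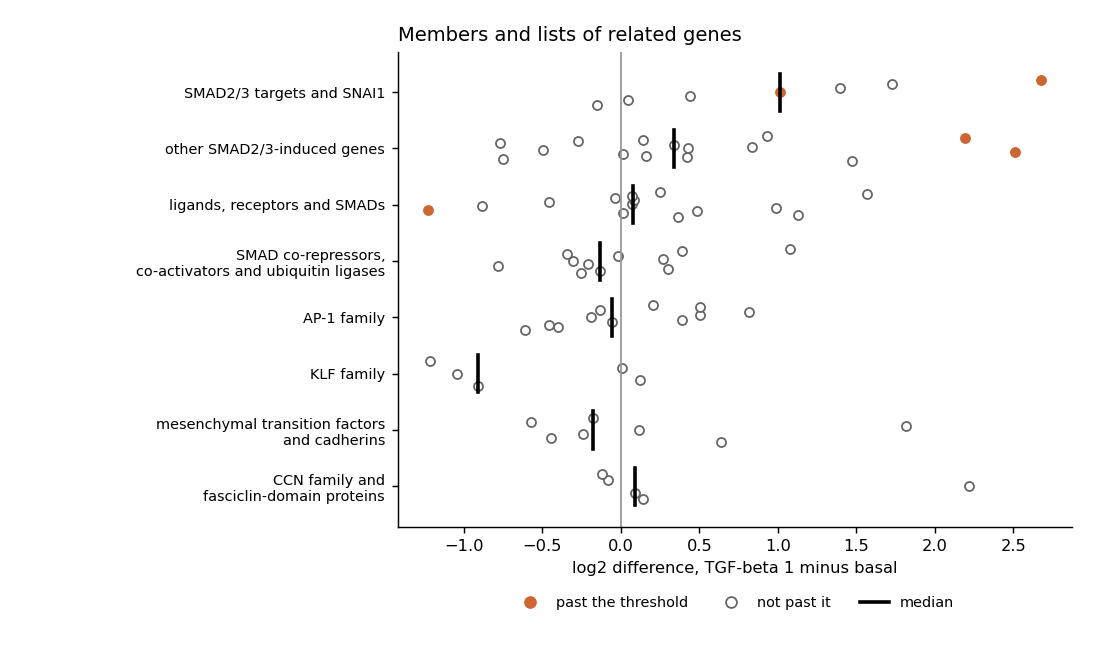
Log2 difference, TGF-beta 1 minus basal, of the 7 members and of the measured genes in each of the 7 lists of related genes, one circle per gene, filled where the gene passed the limma threshold, with a bar at the median. The filled circles are TGFBI and SNAI1 among the members, ANGPTL4 and TAGLN among other induced genes, and TGFBR2 at -1.23 among ligands, receptors and SMADs.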

How the data were processed

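Per the submitters' processing notes the authors made the deposited log2 values with RMA and the affy package. Versions, array build and scan dates are not given in the sources used here. RMA sets arrays to a common distribution and gives no detection call. Of 24128 table rows, 112 control probe sets were left out. The annotation gave 1 symbol for 13292 probe sets, several for 86 and none for 10638. A gene is an Entrez identifier, and its brightest probe set over the 6 arrays stands for it. The test was that of limma 3.58.1 (R 4.3.3), with lmFit, eBayes, a treatment term alone and no filter, which leaves 4 residual degrees of freedom. It was two-sided, with Benjamini-Hochberg adjustment over all genes or all probe sets. Intervals are 95% intervals of that fit. The fit was tested on simulated data. The members, lists and alternatives were chosen with earlier results of these data known. Besides the 8 members, the 3 genes of each list with the smallest unadjusted p are named, and the 2 genes most like each of the 4 members with the largest change. VIM, CDH2, PECAM1, KDR, CLDN5, COL3A1, KRT5 and CD14 are named as list or marker genes outside this rule. Alternatives were further quantile normalization, median centring, limma-trend, robust eBayes, blocks for replicate number and array set, filters on dim genes, averaged probe sets and leaving out each array. Figures were drawn with matplotlib 3.10.9.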

Additional observations from a re-analysis of the deposited data

How the results depend on the processing

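Each direction held under all alternatives for 6 of the 7 genes, and TGIF1 alone turned sign, to 0.0044 log2 with the array sets as a block. Of the members 2 passed by limma over all genes. That count was 0 after further quantile normalization (5 at an unadjusted p under 0.05, with limma adjusted p = 0.0519 for TGFBI), 1 with limma-trend, 1 with robust eBayes, 1 with probe sets averaged and 5 with the array set block. TGFBI and SNAI1 both passed with median centring and with the filter at the 25th percentile. The filter at the median level left only 4 of the 7 genes. It took out TGFBI and SNAI1, so its count of 0 (2 at an unadjusted p under 0.05) does not test these calls. Leaving out 1 array gave 0 to 3 members, 0 to 2 member probe sets, 0 to 1538 of all genes and 0 to 13 of the related genes, with the highest counts without basal 3. By limma no member passed without any of the other 5 arrays (5 members at an unadjusted p under 0.05 in each case), and over all genes 1 passed without basal 1, 0 without basal 2, 3 without TGFB 1, 0 without TGFB 2 and 8 without TGFB 3. Of 10 member probe sets 0 passed in the fit reported (limma, 6 at an unadjusted p under 0.05), where 0.658% of all probe sets did. With the array set block 4 of 10 passed, against 5.61% of all, and without basal 3 it was 2 of 10, against 8.38%. Among probe sets above the median level 1 of 9, TGFBI, passed, against 1.2%. The count over all genes was 158, against 99 with limma-trend and 878 with the array set block, where the count of related genes went from 3 to 20. With the replicate number as a block 0 members, 0 related genes and 0 of all genes passed by limma (5, 28 and 2039 at an unadjusted p under 0.05). Across probe sets, deviations from the group means correlated at 0.67, -0.45 and 0.69 for numbers 1, 2 and 3. Between unlike numbers the correlations ran from -0.78 to 0.65. They were positive within the array sets and negative between them, so they cannot tell whether a number marks a shared culture. Both calls among the members lie near the threshold. The number of arrays limits the precision, and signal over background is not known from RMA values.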
